A study of Mus musculus and Homo sapiens with 15 samples.

Results

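Intronic edit clusters of RBFOX2 in mouse brain genes that hold few of them are described here. A cluster is a stretch of RNA, mostly 45 nt long, in which C-to-U edits lie closer together than the local background allows. The members are the clusters of the RBFOX2-INSCRIBE list that are not labelled as exonic and whose first labelled gene has 1 or 2 such clusters. They number 896 of the 5031 clusters of that list, and lie in 731 genes by first label, of which 566 have 1 cluster and 165 have 2. A further 1399 intronic clusters lie in 209 genes with 3 or more, and 2736 clusters are exonic. Clusters called in the RBFOX2-INSCRIBE libraries and the authors' removal of buffer-only clusters chose the list, so edits within the members are given as a description, without a test.

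RBFOX2 is one of the RBFOX proteins, RNA-binding splicing regulators that are abundant in neurons and muscle and that recognise UGCAUG, or the shorter GCAUG, in RNA. Much of this binding is in introns, where it is known to promote exon inclusion when it lies downstream of an alternative exon and skipping when it lies upstream. In INSCRIBE an antibody binds the protein in fixed tissue, a nanobody fused to the cytidine deaminase APOBEC1 binds the antibody, and cytidines of nearby RNA are converted to uridine, which sequencing reads as T. APOBEC1 is known to act best on a C that follows A or U.

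Libraries were made from coronal brain slices, 20 µm thick and fixed with paraformaldehyde, of female wild type C57BL/6J mice aged 2 months. Of the 9 libraries, 3 had antibody to RBFOX2 and the APOBEC1 fusion (RBFOX2-INSCRIBE), 3 had the fusion without antibody (enzyme-only) and 3 had neither (buffer-only). The methods name 2 mice, so the slices share animals and the p-values measure the spread between slices. Filtered edited reads numbered 295672 to 339567 per RBFOX2-INSCRIBE library, 267277 to 290808 per enzyme-only library and 193252 to 262593 per buffer-only library, and the median edited site was covered by 16 or 17 reads in every library. Of 10 defining neuron markers, 8 held edited reads in all 9 libraries. Striatal neuron markers together held 6256 to 8146 CPM in RBFOX2-INSCRIBE, 4842 to 5797 CPM in enzyme-only and 4829 to 5687 CPM in buffer-only, where CPM scales edited reads to a total of the library, and this bears on the gene comparisons given later. In such bulk slices fewer cells of a type and less RNA per cell cannot be told apart.

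Of the 896 intervals, 891 were exactly those called in RBFOX2-INSCRIBE replicate 3. A called cluster of replicate 1 overlapped 892 members and one of replicate 2 overlapped 756. The other 140 members lay at most 90 nt from a cluster of replicate 2. The labels of 333 members (37.2%) list several overlapping genes, and 217 members lay in another labelled gene than the first when the strand and span of GENCODE genes were used. That gene, protein-coding genes first, names each cluster below. It was found for 893 members, which fell in 730 genes, and 866 of them lay in a protein-coding gene.

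The sequences of 8 members are given because their edits and their UGCAUG motifs can be read together. Each runs on the sense strand of GRCm38 (mm10), as DNA, with each UGCAUG, here spelled TGCATG, in capitals, and covers the cluster with up to 50 nt on each side, except that the window of Dgcr8 is the middle of its cluster, which runs on for 45 nt past each end. Positions are counted from 1 at the left end.
Nktr (chr9:121729721-121729895, plus strand): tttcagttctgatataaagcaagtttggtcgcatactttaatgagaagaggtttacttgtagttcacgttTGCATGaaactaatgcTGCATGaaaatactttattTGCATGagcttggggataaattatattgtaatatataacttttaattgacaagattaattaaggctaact
Adgrb1 (chr15:74583868-74584117, plus strand): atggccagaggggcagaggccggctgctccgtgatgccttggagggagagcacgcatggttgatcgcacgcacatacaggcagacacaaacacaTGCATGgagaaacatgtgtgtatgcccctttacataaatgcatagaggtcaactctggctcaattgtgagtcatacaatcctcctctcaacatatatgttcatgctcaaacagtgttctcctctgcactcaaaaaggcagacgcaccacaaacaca
Kif1b (chr4:149259620-149259918, minus strand): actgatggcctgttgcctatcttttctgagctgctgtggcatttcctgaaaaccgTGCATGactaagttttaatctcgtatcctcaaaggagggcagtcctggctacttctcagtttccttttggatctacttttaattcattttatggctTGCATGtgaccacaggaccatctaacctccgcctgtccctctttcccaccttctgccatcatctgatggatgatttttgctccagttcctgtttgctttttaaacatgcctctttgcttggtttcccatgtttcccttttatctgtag
Dync1i2 (chr2:71227840-71228074, plus strand): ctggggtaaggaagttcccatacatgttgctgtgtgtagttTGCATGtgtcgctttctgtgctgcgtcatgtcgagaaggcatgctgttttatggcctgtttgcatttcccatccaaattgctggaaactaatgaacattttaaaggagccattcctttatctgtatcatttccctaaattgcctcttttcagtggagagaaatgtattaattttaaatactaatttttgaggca
Dgcr8 (chr16:18285879-18286178, minus strand): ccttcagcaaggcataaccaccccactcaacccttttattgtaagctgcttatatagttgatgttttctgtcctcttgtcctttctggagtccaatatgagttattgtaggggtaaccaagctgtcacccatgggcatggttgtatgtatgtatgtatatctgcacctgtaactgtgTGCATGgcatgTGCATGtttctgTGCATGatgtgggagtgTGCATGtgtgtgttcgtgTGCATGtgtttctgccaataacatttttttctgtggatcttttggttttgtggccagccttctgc
Slc22a23 (chr13:34192365-34192629, minus strand): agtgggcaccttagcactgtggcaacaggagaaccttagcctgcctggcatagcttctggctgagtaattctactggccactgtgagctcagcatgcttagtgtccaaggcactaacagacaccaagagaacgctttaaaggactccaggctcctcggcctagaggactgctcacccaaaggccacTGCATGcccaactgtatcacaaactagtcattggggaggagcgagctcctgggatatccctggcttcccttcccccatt
Ranbp3l (chr15:9016111-9016330, plus strand): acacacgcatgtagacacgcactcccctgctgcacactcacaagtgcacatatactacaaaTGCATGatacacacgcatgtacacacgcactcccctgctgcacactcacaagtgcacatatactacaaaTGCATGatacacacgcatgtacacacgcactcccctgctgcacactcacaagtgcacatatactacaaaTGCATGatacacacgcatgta
Nell2 (chr15:95469716-95469935, minus strand): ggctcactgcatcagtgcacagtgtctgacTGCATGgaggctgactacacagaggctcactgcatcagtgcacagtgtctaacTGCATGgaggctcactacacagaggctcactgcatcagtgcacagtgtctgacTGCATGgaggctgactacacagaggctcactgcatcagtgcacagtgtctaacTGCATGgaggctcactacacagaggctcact

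In Nktr, which encodes a cyclophilin-related protein with a serine- and arginine-rich region, 3 motifs start at positions 71, 87 and 106. The most edited C, at position 99, had 11 edited reads over the RBFOX2-INSCRIBE libraries, and the C at position 86, directly before the motif, had 9. No edited read fell in this cluster in any of the 6 control libraries, although a called cluster of 1 buffer-only library overlapped it. In Slc22a23, an organic-ion transporter family member, the C at position 186 before the motif at 187 carried 6 edited reads, the most of any C there. In Adgrb1, an adhesion receptor with roles in engulfment and at synapses, the motif starts at position 95, and the C at position 170 had 9 edited reads against 4 at position 107. Dync1i2, which encodes an intermediate chain of cytoplasmic dynein, has its motif at position 42, just outside the cluster, and its most edited C at position 68 with 6 edited reads. The windows of these genes also held control edits outside the clusters. Enzyme-only had 4 edited reads at position 224 of Adgrb1, 2 at 250 and 1 at 259 of Slc22a23, and 1 at 186 of Dync1i2. Buffer-only had 1 at position 36 of Nktr.

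Ranbp3l and Nell2 lie in tandem repeats that carry the motif again and again. Ranbp3l, which encodes a Ran-binding protein, has 3 copies of UGCAUG and 7 of GCAUG in its window. Nell2, a secreted neuronal glycoprotein, has 4 copies of UGCAUG, and its edited C at positions 83 and 136 stand directly before a motif, with 4 edited reads each. Reads from such repeats can be placed on the wrong copy, and how the aligner resolved them was not tested. Dgcr8, the RNA-binding partner of Drosha in microRNA processing, has 5 copies within 390 nt of cluster, the longest member. Its label also lists Ranbp1 and Mir1306 among other genes. Kif1b, a kinesin that moves mitochondria and synaptic vesicle precursors, has motifs at positions 56 and 152, and its edits were spread, with at most 3 edited reads at a single C.

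Summed over all members, edited reads were few in every library and more frequent in RBFOX2-INSCRIBE. They numbered 1163, 1042 and 1760 in the RBFOX2-INSCRIBE libraries, 253, 264 and 222 in the enzyme-only libraries, and 263, 184 and 199 in the buffer-only libraries. On the CPM scale, this was 3437, 3069 and 5953 in RBFOX2-INSCRIBE, 918, 908 and 831 in enzyme-only, and 1002, 918 and 1030 in buffer-only. The ratio of the RBFOX2-INSCRIBE to the enzyme-only mean was 4.69 (SD 1.77 over the 3 RBFOX2-INSCRIBE libraries), and 7.25 without the 26 members over a confident control cluster, a choice made after the values were seen. All RBFOX2-INSCRIBE libraries lay above all controls, an order that the choice of members favours, and replicate 3, whose intervals define the list, was the highest. Enzyme-only and buffer-only libraries overlapped.

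**Figure D1:**
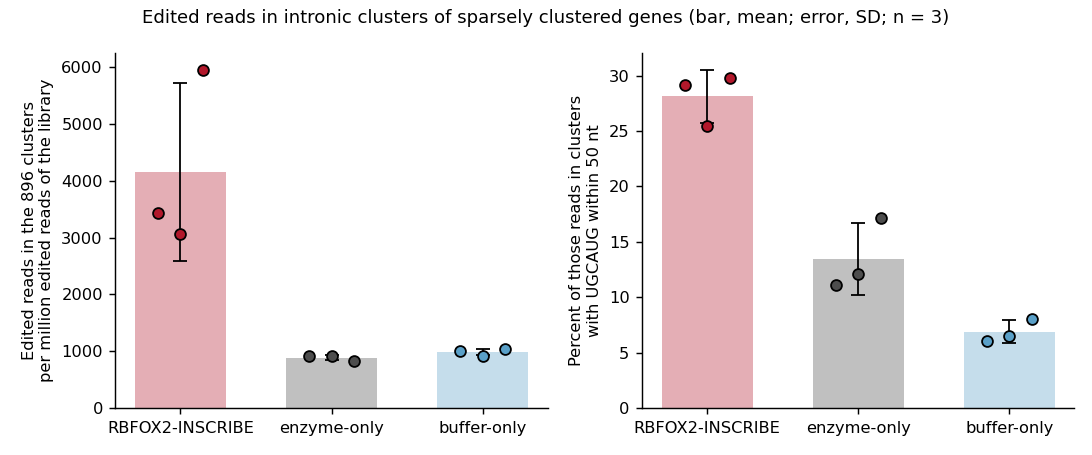
Edited reads in the 896 clusters on the CPM scale, over all filtered edited reads of each library (left) and the percent of those reads in clusters with UGCAUG within 50 nt (right), for RBFOX2-INSCRIBE, enzyme-only and buffer-only. Bars are means, error bars SD and points the 3 libraries of a group, and in both panels every RBFOX2-INSCRIBE library lies above every control library. Edits of RBFOX2-INSCRIBE chose the clusters, and no test was made.

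The cover of the edited sites did not separate the groups. It averaged 27.7, 30.4 and 21.6 reads per edited site in the RBFOX2-INSCRIBE libraries, 29.6, 30.2 and 25.7 in the enzyme-only libraries, and 35.5, 32.0 and 25.6 in the buffer-only libraries. Clusters that FLARE called in each library had similar edited shares, with a median of 1.33%, 1.22% and 1.59% of covering reads edited in RBFOX2-INSCRIBE, 1.56%, 1.29% and 1.69% in enzyme-only, and 1.37%, 1.27% and 1.47% in buffer-only, over the members each library's clusters overlapped. Those were 160, 164 and 151 members in the enzyme-only libraries and 153, 111 and 129 in the buffer-only libraries. Members with at least 1 edited read numbered 675, 602 and 892 in the RBFOX2-INSCRIBE libraries, 126, 129 and 118 in the enzyme-only libraries, and 115, 78 and 99 in the buffer-only libraries.

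The edited C followed A or U for 74.8%, 72.1% and 74.3% of the members' edited reads in the RBFOX2-INSCRIBE libraries, 66.4%, 62.1% and 66.7% in enzyme-only, and 68.8%, 70.1% and 57.8% in buffer-only. The RBFOX2-INSCRIBE libraries were the 3 highest. Clusters with UGCAUG within 50 nt held 29.1%, 25.4% and 29.8% of the members' edited reads in the RBFOX2-INSCRIBE libraries, 11.1%, 12.1% and 17.1% in enzyme-only, and 6.08%, 6.52% and 8.04% in buffer-only. The RBFOX2-INSCRIBE reads chose the members, and part of the control reads lay in members without the motif. Gm21092 alone held 49 of the 263 reads in buffer-only replicate 1 and 39 of the 1163 in RBFOX2-INSCRIBE replicate 1. A preference for the motif was not tested with these shares.

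A single member rested on few reads. The median was 3 edited reads summed over the RBFOX2-INSCRIBE libraries, 667 members had 4 or fewer, and 60 had 10 or more. Edited reads were found in all 3 RBFOX2-INSCRIBE libraries for 502 members, in 2 for 272, in 1 for 119 and in none for 3. Of the members, 495 (55.2%) had no edited read in the 6 control libraries, beside 43.7% of the whole list, and 237 (26.5%) had edits in all 3 RBFOX2-INSCRIBE libraries and no control, beside 20.2% of the whole list. For 327 members (36.5%) each RBFOX2-INSCRIBE library had more edited reads than each enzyme-only library. This held for 31.4% of the whole list and 39.4% of the intronic clusters of genes with 3 or more, and since these reads chose the clusters nothing is read from the shares. No member was lower in all 3 RBFOX2-INSCRIBE libraries than in all 3 enzyme-only libraries, and 46 had enzyme-only sums that equalled or passed those of RBFOX2-INSCRIBE. Confident clusters, which need all replicates of a group, overlapped 21 members (2.34%) for enzyme-only and 12 for buffer-only. A cluster called in 1 or more enzyme-only libraries overlapped 353 of the 896 members. Only 405 members overlapped no called cluster of any of the 6 control libraries.

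On either side of the limit of 2 clusters per gene, the clusters of genes with 2 had a median of 3 edited reads and a median depth of 74.7 in the list, and those of genes with exactly 3 had 4 edited reads and a depth of 105. The depth is the mean read depth that FLARE gives for a cluster. Genes with 1 cluster had a median depth of 68.8.

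The members with the most edited reads were of different kinds. Adgrb1 had 16, 2 and 20 edited reads in the RBFOX2-INSCRIBE libraries, against none in the 3 enzyme-only and 3 buffer-only libraries. Kif1b had 11, 6 and 10 in RBFOX2-INSCRIBE, none in enzyme-only and 1 in each buffer-only library. Dbn1, which encodes the actin-binding protein drebrin of dendritic spines, had 10, 11 and 19 in RBFOX2-INSCRIBE, 1 in each enzyme-only library and 0, 0 and 1 in buffer-only. In these 3 genes no control library reached the RBFOX2-INSCRIBE libraries, and Adgrb1 varied the most between slices. Nktr had 11, 5 and 11 edited reads in RBFOX2-INSCRIBE, and Slc22a23 had 6, 4 and 14, with none in any control library. The main Dync1i2 cluster with a motif had 8, 8 and 9 in RBFOX2-INSCRIBE, 0, 0 and 1 in enzyme-only and 1, 0 and 0 in buffer-only, which was the most even member among those named for the motif. The other Dync1i2 cluster, with its nearest UGCAUG 304 nt from its centre, had 5, 12 and 9 in RBFOX2-INSCRIBE, 0, 1 and 0 in enzyme-only and none in buffer-only.

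Dgcr8 had 11, 3 and 12 edited reads in the RBFOX2-INSCRIBE libraries, 1, 2 and 0 in enzyme-only and none in buffer-only. Ranbp3l had 9, 7 and 15 in RBFOX2-INSCRIBE, 1, 4 and 3 in enzyme-only and 0, 0 and 1 in buffer-only, and it overlapped a confident enzyme-only cluster. Ctps2, which encodes a CTP synthase, had 10, 15 and 4 in RBFOX2-INSCRIBE, 2, 0 and 0 in enzyme-only and 3, 0 and 0 in buffer-only. In all 3 the lowest RBFOX2-INSCRIBE library was above the highest control library, and the nearest UGCAUG to Ctps2 lay 271 nt from its centre.

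Other members were edited as much without antibody. Gm21092, an unprocessed pseudogene, had the most edited reads of all, 39, 31 and 30 in RBFOX2-INSCRIBE, 29, 35 and 27 in enzyme-only, and 49, 33 and 22 in buffer-only. D5Ertd579e had 15, 14 and 10 in RBFOX2-INSCRIBE, 10, 19 and 10 in enzyme-only, and 12, 19 and 12 in buffer-only. Prkcz, an atypical protein kinase C, had 16, 45 and 35 in RBFOX2-INSCRIBE, 25, 17 and 20 in enzyme-only, and 46, 26 and 27 in buffer-only. In all 3 the groups overlapped, buffer-only included, where no enzyme was added, and none had UGCAUG within 50 nt. These members lay over confident clusters of both controls. Pou6f1, a transcription factor gene, had 1, 2 and 3 edited reads in the RBFOX2-INSCRIBE libraries, 1, 7 and 0 in enzyme-only, and 2, 1 and 3 in buffer-only. Copg2, a subunit of the COPI coat, had 1, 4 and 1 in RBFOX2-INSCRIBE, 3, 2 and 1 in enzyme-only and 4, 0 and 0 in buffer-only.

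**Figure D2:**
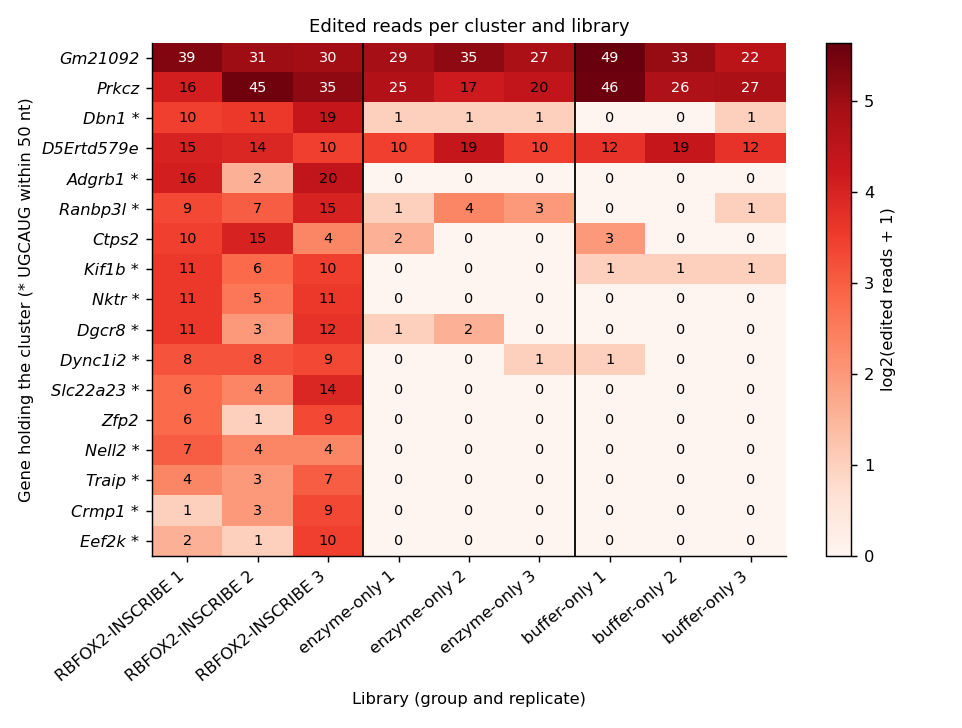
Edited reads of each named cluster (down, by gene, with an asterisk for UGCAUG within 50 nt) in each of the 9 libraries (across, by group and replicate), with colour on a log2(edited reads + 1) scale and the read number in each cell. Gm21092, Prkcz and D5Ertd579e are as dark in the control libraries as in RBFOX2-INSCRIBE, and Adgrb1, Nktr and Slc22a23 are at 0 in all 6 control libraries.

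Members with edits in all 3 RBFOX2-INSCRIBE libraries and none in the controls included Zfp2, a zinc-finger gene, with 6, 1 and 9 edited reads in RBFOX2-INSCRIBE. Nell2 had 7, 4 and 4, and Traip, an E3 ubiquitin ligase of the replication machinery, had 4, 3 and 7. Crmp1, a collapsin response mediator that acts in axon guidance, had 1, 3 and 9, and Eef2k, the kinase that inhibits elongation factor eEF2, had 2, 1 and 10. Replicate 3 held most of the reads of Zfp2, Crmp1 and Eef2k. At the other end, Fmn2, Smyd3, Kcnmb4 and Fam149b had the lowest cover of 5 reads per edited site and 1 or 2 edited reads, and of these Fmn2 and Kcnmb4 had none in the controls. Such a member is not distinguishable from the controls at this depth.

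The genes that hold the members were grouped by lists of function. The lists differ in length, so the number of genes in a group also reflects its list. Over all members, 172 of 896 clusters (19.2%) had UGCAUG within 50 nt, and no group was tested against that share. Kinases and phosphatases formed the largest group and had the longest list, with 44 of its 144 genes. Their 52 clusters held 264 edited reads in RBFOX2-INSCRIBE, 79 in enzyme-only and 108 in buffer-only. Prkcz supplied 96, 62 and 99 of these. Ksr1, a scaffold of the Ras and MAP kinase pathway, and Dgkz, a diacylglycerol kinase, each had 3, 1 and 4 edited reads in RBFOX2-INSCRIBE, none in the controls, and a UGCAUG within 50 nt. Wnk1, a kinase that regulates ion transport, had 4, 1 and 2 in RBFOX2-INSCRIBE, 0, 0 and 1 in enzyme-only and none in buffer-only.

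Cytoskeleton and motor genes were next, with 30 of 117 listed genes. Their 37 clusters held 225 edited reads in RBFOX2-INSCRIBE, 16 in enzyme-only and 8 in buffer-only. Of these genes 10 had UGCAUG within 50 nt of a cluster. Besides Kif1b and Dync1i2, Dctn1, the large subunit of dynactin, had 7, 1 and 4 edited reads in the RBFOX2-INSCRIBE libraries, 1, 0 and 3 in enzyme-only and none in buffer-only, with 2 motifs. Map6, a microtubule-stabilising protein, had 5, 1 and 3 in RBFOX2-INSCRIBE and none in the controls.

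Cell adhesion and synaptic organiser genes numbered 22 with 31 clusters, which held 133 edited reads in RBFOX2-INSCRIBE, 15 in enzyme-only and 8 in buffer-only. Il1rapl1, a receptor-like synaptic organiser, had 1, 3 and 4 in RBFOX2-INSCRIBE and none in the controls, with the middle of a motif 64 nt from the cluster centre. Adgrl1, the latrophilin that binds teneurins, had 1, 2 and 2 in RBFOX2-INSCRIBE, none in enzyme-only and 0, 1 and 0 in buffer-only. Lsamp, a cell adhesion protein of limbic neurons, had 1, 1 and 3 in RBFOX2-INSCRIBE, 0, 1 and 0 in enzyme-only and 0, 0 and 1 in buffer-only, so its groups overlapped.

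Calcium signalling contributed 17 genes with 20 clusters, which held 96 edited reads in RBFOX2-INSCRIBE, 21 in enzyme-only and 16 in buffer-only. Ryr1, a calcium release channel best known from skeletal muscle, had 1, 15 and 4 edited reads in the RBFOX2-INSCRIBE libraries, 0, 0 and 2 in enzyme-only and none in buffer-only. Most of its reads came from replicate 2, and UGCAUG lay in the cluster. Atp2b4, a calcium pump of the plasma membrane, had 2, 2 and 6 in RBFOX2-INSCRIBE, none in enzyme-only and 0, 1 and 1 in buffer-only, with 2 motifs within 50 nt. Ppp3r1, the regulatory subunit of calcineurin, had 1, 2 and 5 in RBFOX2-INSCRIBE, 0, 0 and 1 in enzyme-only and 0, 0 and 1 in buffer-only.

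Channel genes, voltage-gated or for potassium, numbered 15 with 19 clusters, and held 61 edited reads in RBFOX2-INSCRIBE, 11 in enzyme-only and 12 in buffer-only. Cacng3, an auxiliary subunit of AMPA receptors placed here by its calcium channel name, had 2, 5 and 3 in RBFOX2-INSCRIBE, 2 in each enzyme-only library and 3, 2 and 1 in buffer-only, so its groups overlapped. Cacna1e, which forms R-type calcium channels, had 2, 0 and 4 in RBFOX2-INSCRIBE and none in the controls. Kcnj6 had 2, 1 and 2 in RBFOX2-INSCRIBE, 0, 1 and 1 in enzyme-only and 0, 0 and 1 in buffer-only. It encodes a potassium channel opened by G proteins.

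Synaptic genes had low values. Receptors for glutamate and GABA numbered 10 with 16 clusters and 41 edited reads in RBFOX2-INSCRIBE, 5 in enzyme-only and 2 in buffer-only. Grik2, a kainate receptor subunit, had 2, 1 and 4 in RBFOX2-INSCRIBE, 0, 0 and 1 in enzyme-only and none in buffer-only. Postsynaptic scaffold genes numbered 11 with 14 clusters and 46 edited reads in RBFOX2-INSCRIBE, 4 in enzyme-only and 7 in buffer-only, and none had UGCAUG within 50 nt. Dlg4, which encodes the scaffold PSD-95, had 1, 1 and 2 in RBFOX2-INSCRIBE and none in the controls. Presynaptic release genes numbered 8 with 11 clusters and 32 edited reads in RBFOX2-INSCRIBE, none in enzyme-only and 3 in buffer-only, again without the motif within 50 nt. Cltc, the clathrin heavy chain, had 5, 0 and 1 in RBFOX2-INSCRIBE and none in the controls, and Syt7, a calcium sensor of vesicle release, had 1 in each RBFOX2-INSCRIBE library and none in the controls.

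Splicing and RNA-binding proteins numbered 16 with 21 clusters and 65 edited reads in RBFOX2-INSCRIBE, 6 in enzyme-only and 7 in buffer-only. Srsf10, a splicing factor, had 1, 3 and 6 in RBFOX2-INSCRIBE and none in the controls. Elavl3, a neuronal RNA-binding protein, had 1, 4 and 1 in RBFOX2-INSCRIBE and none in the controls. Tra2a, another splicing factor, had 1, 1 and 2 in RBFOX2-INSCRIBE, none in enzyme-only and 0, 0 and 1 in buffer-only, and its cluster held UGCAUG. The RBFOX genes themselves are not among the members, since Rbfox1 held 46, Rbfox2 11 and Rbfox3 4 intronic clusters.

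Genes known for exons regulated by RBFOX proteins numbered 18 with 23 clusters and 118 edited reads in RBFOX2-INSCRIBE, 11 in enzyme-only and 9 in buffer-only. Of them 5 had UGCAUG within 50 nt. Mtmr3, a phosphatase of inositol lipids, had 1, 4 and 3 in RBFOX2-INSCRIBE and none in the controls, with UGCAUG in the cluster. Sptan1, the non-erythroid alpha spectrin, had 3, 2 and 3 in RBFOX2-INSCRIBE, 0, 2 and 0 in enzyme-only and none in buffer-only, so the groups met in replicate 2 of each. Add3, an adducin of the spectrin and actin network, had 4, 0 and 2 in RBFOX2-INSCRIBE and none in the controls.

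Chromatin and transcription regulators numbered 20 with 23 clusters and 69 edited reads in RBFOX2-INSCRIBE, 3 in enzyme-only and 10 in buffer-only. Kat6b, a histone acetyltransferase, had 4, 1 and 6 in RBFOX2-INSCRIBE, none in enzyme-only and 0, 0 and 1 in buffer-only. Hdac4, a histone deacetylase, had 1, 3 and 1 in RBFOX2-INSCRIBE and none in the controls, with UGCAUG in its 45-nt cluster. Ubiquitin system genes numbered 16 with 20 clusters and 83 edited reads in RBFOX2-INSCRIBE, 10 in enzyme-only and 8 in buffer-only. Herc1, a giant ubiquitin ligase, had 1, 1 and 8 in RBFOX2-INSCRIBE, 0, 1 and 0 in enzyme-only and none in buffer-only. Replicate 3 again held most of its reads.

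UGCAUG, which the rule did not use, lay in 90 of the 896 members, or 10.04% (Wilson 95% interval 8.24% to 12.2%, counting error only). Enzyme-only intronic clusters chosen by the same rule from the enzyme-only list, which number 595 in 518 genes, held it in 1.85% (1.04% to 3.28%). Buffer-only confident intronic clusters, of which there are 855, held it in 1.75%. The RBFOX2-INSCRIBE intronic clusters of genes with 3 or more held it in 11.7%, and the exonic clusters in 6.03%. The intervals of the members and of the enzyme-only clusters did not overlap. Clusters are not replicates, and no test was made.

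Within 50 nt of the cluster, UGCAUG was found for 172 members, 19.2% (16.8% to 21.9%), against 5.21% (3.69% to 7.30%) of the enzyme-only clusters. Within 100 nt it was found for 26.1% of the members and 8.57% of the enzyme-only clusters. At least 2 copies lay within 50 nt of 46 members. Among clusters of exactly 45 nt, which have the same length in both lists, 33 of 629 members (5.25%) held it, against 6 of 460 enzyme-only clusters (1.30%).

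GCAUG, which includes UGCAUG, lay in 15.3% of members and 3.70% of enzyme-only clusters. UGCAUG was about as frequent in genes with 1 member (10.6%) as in genes with 2 (9.09%), in members without a control edited read (10.1%) and in members with a single gene label (9.77%). Clusters just past the limit, in genes with exactly 3, held it in 13.2%.

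The motif was most frequent at the members and in the windows around them. A 45-nt window at the centre of the cluster held UGCAUG in 6.92% of members (5.44% to 8.77%). Windows centred 45 and 135 nt upstream held it in 6.36% and 5.25%. Those 45 and 90 nt downstream held it in 4.58% and 4.46%. The intervals of these 4 windows overlapped that of the centre, so the peak was broad. Windows centred 495 nt upstream and downstream held it in 2.01% and 1.56%. For the enzyme-only clusters the window at the centre held it in 1.34%.

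**Figure D3:**
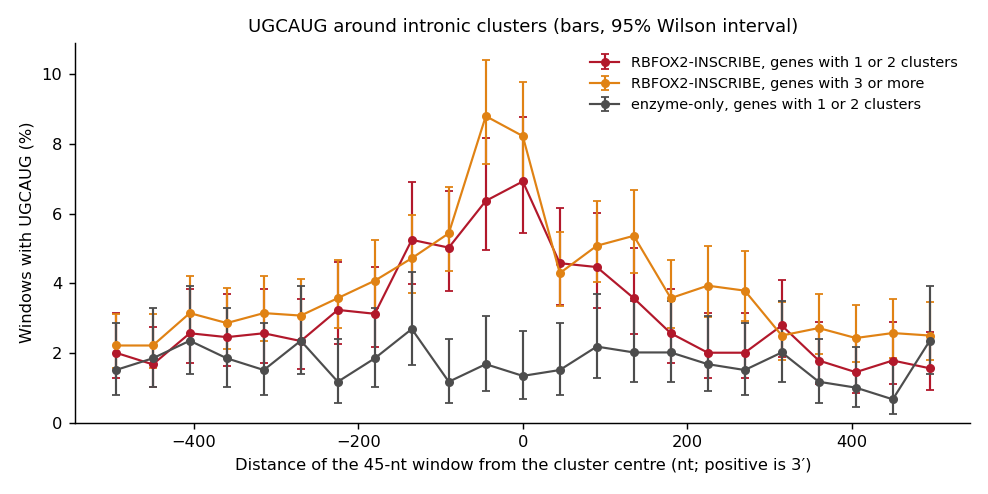
Percent of 45-nt windows that hold UGCAUG (vertical axis) against the distance of the window from the cluster centre in nt (horizontal axis) for members, for RBFOX2-INSCRIBE clusters in genes with 3 or more, and for enzyme-only clusters in genes with 1 or 2, with Wilson 95% intervals. Members peak at 6.92% at the centre, and the enzyme-only clusters show 1.34% there.

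The members lay closer to exons than the clusters of richly clustered genes. The median distance to the nearest exon of any gene on the same strand was 1364 nt for members. It was 5760 nt for RBFOX2-INSCRIBE clusters of genes with 3 or more, and 1410 nt for enzyme-only clusters of genes with 1 or 2. Within 500 nt of an exon lay 252 members, 28.3% (25.4% to 31.3%), against 16.6% (14.7% to 18.6%) of the clusters of genes with 3 or more and 28.8% of the enzyme-only clusters. The distances were thus near those of enzyme-only clusters chosen the same way. Of the members, 163 lay within 500 nt of such an exon upstream and 132 within 500 nt of one downstream. Only 5 overlapped an annotated exon.

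Members also had a lower listed depth than the other intronic clusters. Their median depth was 70.9, against 141 in genes with 3 or more and 82.5 for the enzyme-only clusters, while exonic clusters had 40.9. The listed depth can differ from the cover of edited sites, as in Kcnmb4 with 257 against 5 reads per edited site in RBFOX2-INSCRIBE. It therefore does not show how well the RNA was covered. The shortest length, 45 nt, was that of 629 members (70.2%), and the longest member was 390 nt. G and C made up 48.1% of member bases, 45.5% in the clusters of genes with 3 or more and 49.6% in the enzyme-only clusters.

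The member genes were chosen by clusters of the RBFOX2-INSCRIBE libraries. Sites in their introns but outside every cluster were not used by the rule, and a library measure of them can be tested. Each library gave 19617 to 39166 such sites. UGCAUG lay within 50 nt of 6.90%, 6.13% and 6.88% of them in RBFOX2-INSCRIBE, 4.37%, 4.37% and 4.60% in enzyme-only, and 4.23%, 4.11% and 4.45% in buffer-only. The means were 6.64% ± 0.44 in RBFOX2-INSCRIBE and 4.45% ± 0.13 in enzyme-only (SD, n = 3 each), a difference of 2.19 percentage points, and the groups did not overlap. With 3 against 3 libraries the smallest p is 0.1, which this difference and that against buffer-only (2.37 points) both reached in an exact two-sided permutation test (exact p = 0.1 each, adjusted p = 0.2 over 12 tests). Enzyme-only and buffer-only overlapped, with a difference of 0.19 points (exact p = 0.3, adjusted p = 0.36). The same share at intronic sites of all other genes was 6.47%, 6.01% and 6.63% in RBFOX2-INSCRIBE, 4.13%, 4.30% and 4.16% in enzyme-only, and 4.12%, 4.15% and 4.05% in buffer-only, so the level was near that of the member genes.

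By position, counted from the C of UGCAUG, the sites outside the clusters were densest from that C to 40 nt downstream in RBFOX2-INSCRIBE. The shares are of all such sites within introns of member genes. The bin of 20 nt that starts at this C and runs downstream held 1.76%, 1.53% and 1.68% in RBFOX2-INSCRIBE. It held 0.839%, 0.840% and 1.12% in enzyme-only, and 0.919%, 0.831% and 0.960% in buffer-only. Edits at the C of the motif itself are in this bin and were not counted apart. The next bin downstream held 1.55%, 1.45% and 1.70% in RBFOX2-INSCRIBE, so it was the highest in replicate 3. The bin directly upstream held 1.40%, 1.19% and 1.39% in RBFOX2-INSCRIBE. At 190 nt upstream the RBFOX2-INSCRIBE libraries were at 1.07%, 1.02% and 1.07%.

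**Figure D4:**
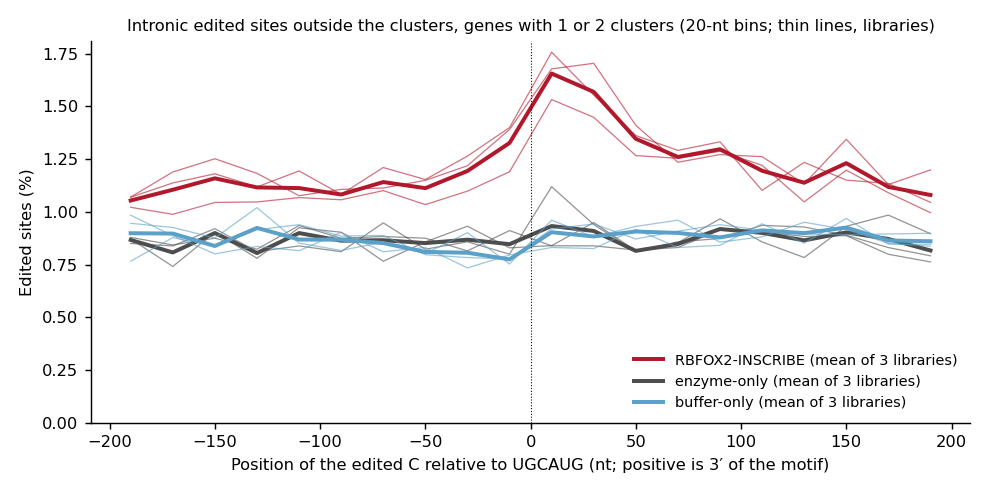
Percent of the intronic edited sites of member genes outside the clusters (vertical axis) by position relative to UGCAUG in bins of 20 nt (horizontal axis, positive downstream), with thin lines for libraries and thick lines for group means. The RBFOX2-INSCRIBE mean is highest in the bin that starts at the C of the motif and runs downstream. There its libraries lie at 1.53% to 1.76%, above all control libraries (0.831% to 1.12%).

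The edited C followed A or U at 66.3%, 63.2% and 67.3% of these sites in RBFOX2-INSCRIBE, 61.8%, 63.4% and 64.1% in enzyme-only, and 54.4%, 53.7% and 54.2% in buffer-only. RBFOX2-INSCRIBE and enzyme-only overlapped (difference 2.53 points, exact p = 0.3, adjusted p = 0.36), and both lay above buffer-only, by 11.5 and 9.0 points (exact p = 0.1 each, adjusted p = 0.2). The sites were covered by 15.8, 17.3 and 14 reads on average in RBFOX2-INSCRIBE, 14.3, 14.5 and 13.6 in enzyme-only, and 17.0, 14.5 and 14.5 in buffer-only, with overlap in each comparison. Introns of member genes took 14.2%, 15.1% and 13.6% of edited reads outside clusters in RBFOX2-INSCRIBE, 11.9%, 12.7% and 12.5% in enzyme-only, and 14.6%, 13.1% and 13.8% in buffer-only. RBFOX2-INSCRIBE exceeded enzyme-only by 1.92 points without overlap (exact p = 0.1, adjusted p = 0.2) and overlapped buffer-only (0.46 points, exact p = 0.5, adjusted p = 0.545). The genes were chosen by clusters of the same RBFOX2-INSCRIBE libraries, so this share is not independent of that choice and nothing is read from it.

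Edited reads outside the clusters were then summed per gene and compared by edgeR's quasi-likelihood test in a fit of 6271 genes, of which 691 hold a member. Against enzyme-only, RBFOX2-INSCRIBE had more edited reads in 31 genes (0.494% of those tested) and fewer in none (0.0%) at an adjusted p under 0.05. Of the genes with a member, 5 of 691 rose (0.72%): Rarb, Ryr3, Dpp6, Nebl and Lrrc4c. At an unadjusted p under 0.05 there were 120 of 691, beside 662 of all 6271. The median log2 fold change was 0.10 in the genes with a member and -0.01 in all genes tested, and 454 of the 691 were above 0, beside 3083 of 6271. With intronic sites only, the medians were -0.01 in both, and 300 of 613 were above 0, beside 1412 of 2908. The genes with a member were chosen by clusters of the RBFOX2-INSCRIBE libraries, so their comparison with all genes is not independent of that choice.

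Rarb, a retinoic acid receptor, had 146.7, 205.97 and 298.2 CPM outside its cluster in RBFOX2-INSCRIBE, 47.2, 50.1 and 69.8 in enzyme-only, and 52.9, 41.4 and 7.16 in buffer-only. All RBFOX2-INSCRIBE libraries were above all controls, with a log2 fold change of 1.94 against enzyme-only (SE 0.32, edgeR adjusted p = 0.000223). It was called under all 14 alternatives that gave a value. Its member was weak, with 1 edited read in each RBFOX2-INSCRIBE library, none in enzyme-only and 1, 0 and 0 in buffer-only, so the change lay outside the cluster. Ryr3, a calcium release channel of the same family as Ryr1, had 512, 564 and 676 CPM in RBFOX2-INSCRIBE, 326, 324 and 324 in enzyme-only, and 370, 331 and 322 in buffer-only. Its log2 fold change against enzyme-only was 0.84 (SE 0.16, edgeR adjusted p = 0.00106), and it was lost when the mean number of reads covering the gene's sites was taken as an offset (adjusted p = 0.293).

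Dpp6, an auxiliary subunit of Kv4 potassium channels, had 773, 882 and 741 CPM in RBFOX2-INSCRIBE, 510, 419 and 594 in enzyme-only, and 661, 503 and 730 in buffer-only. Its log2 fold change was 0.66 (SE 0.14, edgeR adjusted p = 0.00863). Nebl, an actin-binding protein of the nebulin family, had 464, 498 and 433 in RBFOX2-INSCRIBE, 227, 305 and 294 in enzyme-only, and 439, 352 and 293 in buffer-only, with a log2 fold change of 0.76 (SE 0.17, edgeR adjusted p = 0.0125). Lrrc4c, the netrin-G ligand that organises excitatory synapses, had 1281, 1545 and 1538 in RBFOX2-INSCRIBE, 878, 1048 and 1227 in enzyme-only, and 1216, 1296 and 1066 in buffer-only, with a log2 fold change of 0.47 (SE 0.12, edgeR adjusted p = 0.0432). In these 3 genes RBFOX2-INSCRIBE lay above every enzyme-only library, but the edgeR adjusted p against buffer-only was 0.394 for Dpp6, 0.489 for Nebl and 0.391 for Lrrc4c. The Nebl call was lost when replicate 2 of RBFOX2-INSCRIBE or replicate 1 of enzyme-only was left out (adjusted p = 0.0684 and 0.218). Those of Dpp6 and Lrrc4c were lost in 5 and 7 of 15 alternatives, with an adjusted p of up to 0.200 and 0.471 over edgeR and DESeq2. Both were lost with mean cover as an offset and with intronic sites only. Both were also lost when replicate 2 of RBFOX2-INSCRIBE or replicate 1 or 2 of enzyme-only was left out. That of Lrrc4c was lost as well without replicate 3 of RBFOX2-INSCRIBE.

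**Figure D5:**
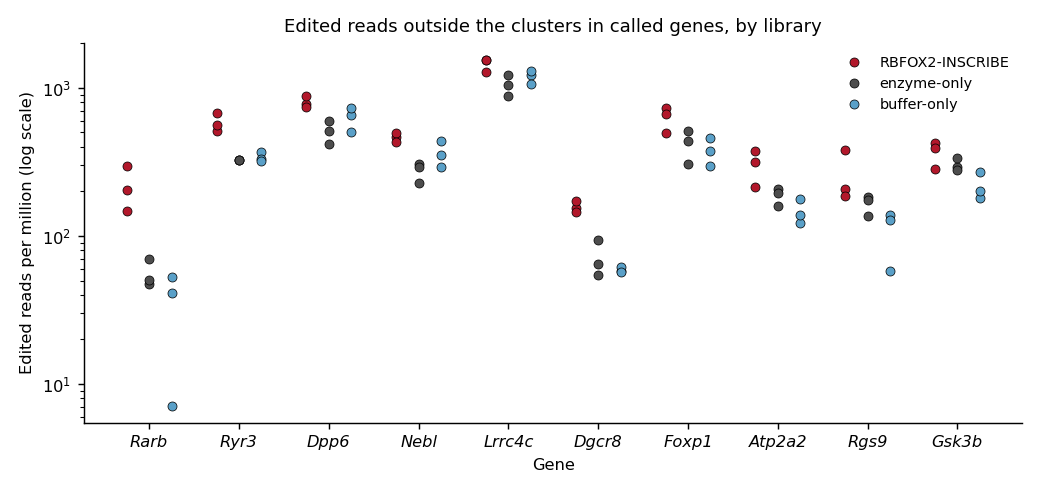
Edited reads outside the clusters in CPM (vertical axis, log scale) in each library of RBFOX2-INSCRIBE, enzyme-only and buffer-only for the member genes called in a comparison with a control. In Rarb the 3 RBFOX2-INSCRIBE libraries (146.7 to 298.2) lie above all 6 control libraries, and in Dpp6, Nebl and Lrrc4c they lie above the enzyme-only libraries.

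Against buffer-only, the same RBFOX2-INSCRIBE libraries had more edited reads in 47 genes (0.749%) and fewer in 3 (0.0478%), 50 in all (0.797%). Of the 691 genes with a member 7 rose: Rarb, Ryr3, Rgs9, Atp2a2, Dgcr8, Foxp1 and Gsk3b. The log2 fold changes were 2.57 for Rarb (edgeR adjusted p = 8.4e-06) and 0.76 for Ryr3 (adjusted p = 0.00826). Dgcr8 had 155, 144 and 172 CPM in RBFOX2-INSCRIBE, 94.4, 54.7 and 64.8 in enzyme-only, and 58.2, 62.0 and 57.2 in buffer-only. Its log2 fold change against buffer-only was 1.40 (SE 0.33, edgeR adjusted p = 0.0155), and against enzyme-only, which it also did not overlap, it was 1.13 (SE 0.30, edgeR adjusted p = 0.0587). The call against buffer-only was lost in 6 of 15 alternatives (adjusted p up to 0.138 over edgeR and DESeq2), including when RBFOX2-INSCRIBE replicate 3 or any 1 buffer-only library was left out.

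Rgs9, a regulator of G-protein signalling of striatal neurons, had 206.2, 185.4 and 382.1 CPM in RBFOX2-INSCRIBE, 184, 137 and 175 in enzyme-only, and 58.2, 138 and 129 in buffer-only, with a log2 fold change of 1.28 against buffer-only (edgeR adjusted p = 0.00893). Foxp1, a transcription factor of striatal and cortical neurons, had a log2 fold change of 0.72 (edgeR adjusted p = 0.0246). Atp2a2, the calcium pump SERCA2, had 1.06 (edgeR adjusted p = 0.0101), and Gsk3b, a kinase of the Wnt pathway and neuronal signalling, had 0.77 (edgeR adjusted p = 0.0446). With mean cover as an offset Rarb alone kept its call against buffer-only, and the log2 fold change of Atp2a2 fell to -0.37. Of the 15 alternatives, run with edgeR or DESeq2, the call of Gsk3b was lost in 9 (adjusted p up to 0.861), of Foxp1 in 7 (up to 0.292), of Rgs9 in 5 (up to 0.425), of Atp2a2 in 5 besides the offset (up to 0.873), of Ryr3 in 4 (up to 0.271) and of Rarb in none. All of these but Rarb lost it without RBFOX2-INSCRIBE replicate 3. Gsk3b and Foxp1 also lost it without replicate 2 of that group, Rgs9, Atp2a2 and Gsk3b without buffer-only replicate 1, Ryr3, Atp2a2, Foxp1 and Gsk3b without buffer-only replicate 2, and Ryr3 and Foxp1 without buffer-only replicate 3. Enzyme-only against buffer-only gave 16 called genes (0.255%), 10 higher (0.159%) and 6 lower (0.0957%), and none with a member by edgeR, although 90 of 691 had an unadjusted p under 0.05, beside 587 of all 6271. DESeq2 called 5 of 393 with a member, all lower, beside 16 of 1370 genes. The 3 comparisons share libraries, so their calls are not independent.

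Markers of striatal neurons moved with the antibody group. Of the list, 15 genes were tested, 4 rose against enzyme-only (Rarb, Pde10a, Spock3 and Ryr3) and none fell. Rarb, Ryr3, Rgs9 and Foxp1 belong to this list, and the part of slice position or striatal content in their values was not tested. Of the other lists, calcium signalling had 2 of 53 tested genes rise (Calm2 and Ryr3), channels 3 of 63 (Cacna2d3, Cacnb2 and Dpp6), adhesion genes 3 of 115 (Cntn5, Tenm2 and Lrrc4c), kinases and phosphatases 3 of 132 and chromatin regulators 2 of 116 (Rarb and Zbtb18). Splicing and RNA-binding proteins had none of 87, genes with RBFOX-regulated exons none of 63, cytoskeleton and motor genes none of 112, and presynaptic genes none of 71, and no gene of these lists fell.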

How the data were processed

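RNA was sequenced from 9 mouse brain libraries, 3 per group, as single-end reads of 100 nt. The authors trimmed them with cutadapt, removed repeats, aligned them to mm10 with STAR 2.5.2 and called C-to-U sites with SAILOR. The deposited site lists give counts of edited and covering reads, the fraction edited and a confidence score for each site, and list only sites with an edited read. The authors called clusters with FLARE (false discovery rate 0.1, merged within 15 nt), and the deposited lists give a score and the read depth of each as a signal. They intersected replicates, so replicates enter as 1 list, and by their methods removed buffer-only clusters, although 12 members still overlap a confident one. No value was normalized.

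Sites were kept at a score over 0.5 and an edited fraction under 0.8. Genes and sequences come from GENCODE vM21 and GRCm38. Members, gene lists, tests and the rule for names were chosen with earlier results of these data known. By that rule, clusters are named for the most edited reads, also with UGCAUG within 50 nt or with none in controls, for the highest and lowest cover and enzyme-only ratio, and up to 4 genes per list, and genes for being called against enzyme-only. Those called only against buffer-only were added after their values were seen.

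Edited reads outside clusters were summed per gene and tested with edgeR 4.0.16 (TMM, filterByExpr, Benjamini-Hochberg adjusted p under 0.05), and with DESeq2 1.42.0 as an alternative. CPM is computed here, for a gene over the TMM-scaled edited reads of the tested genes, for the marker lists over edited reads in genes, and for the members over all filtered edited reads of the library. Library measures were compared by exact two-sided permutation. Shares have Wilson 95% intervals. Such intervals cover counting error only, as reads carry no molecular identifiers. On simulated counts of 6180 genes for RBFOX2-INSCRIBE against enzyme-only, edgeR found 96% of genes changed by 4-fold and 61% of those changed by 2-fold, and 7.1% of its calls were false. Read totals are not given in the sources used here.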

Additional observations from a re-analysis of the deposited data

How the results depend on the processing

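Over the alternatives run, 154 values that answer a comparison were kept, 26 moved and 5 reversed. Here counts were kept within 1.5 times, differences between libraries at the same sign, the read ratio within its SD and the motif share within its Wilson interval. Of values for single genes, 127 kept their direction and call, 51 lost the call and 1 reversed. Member genes called against enzyme-only numbered 5 (of all genes, 31 of 6271), and 8 by DESeq2 (36 of 772), 9 without a filter on low counts (45 of 15432), 24 with every listed site (117 of 7603) and 15 with sites in clusters counted too (59 of 6357). Leaving out a library gave 2 to 9, with 2 without enzyme-only replicate 1, 3 without enzyme-only replicate 2 and 9 without RBFOX2-INSCRIBE replicate 1. Against buffer-only they numbered 7 (50 of 6271), and 2 by DESeq2 (11 of 5559), 38 with every listed site (240 of 7603), 18 with sites in clusters (104 of 6357), 4 when the fit held the compared groups only (24 of 5509) and 1 with mean cover as an offset (7 of 6271). Leaving out a library gave 2 to 9, with 2 without RBFOX2-INSCRIBE replicate 3 or buffer-only replicate 2 and 3 without buffer-only replicate 1. Enzyme-only against buffer-only called 0 (16 of 6271), and 5 by DESeq2 (16 of 1370), 13 with every listed site (105 of 7603), 5 with sites in clusters (42 of 6357), 1 with intronic sites (2 of 2908), 3 with only the compared groups (22 of 5467), 3 with the offset (13 of 6271) and 0 to 1 when a library was left out. The cause of these changes was not tested.

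Replicate numbers were not used as pairs in the main fit, and the labels do not say whether same-numbered slices share an animal. Deviations of same-numbered libraries correlated at -0.054 to 0.088, which cannot settle whether they are paired. With the replicate number as a block, 5 member genes were called against enzyme-only, 7 against buffer-only and 5 for enzyme-only against buffer-only (27 of 6271 genes).

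The log2 fold change of Atp2a2 against buffer-only reversed to -0.37 with the offset. Reads covering a site outside clusters differed by 0.375 between RBFOX2-INSCRIBE and buffer-only and reversed to -0.622 with every listed site, with a range of -0.415 to 1.22 when a library was left out. It was below 0 without RBFOX2-INSCRIBE replicate 2, buffer-only replicate 2 or buffer-only replicate 3. Enzyme-only minus buffer-only was -1.21 and became 0.294 at sites with 20 or more covering reads. The ratio of edited reads in members was 7.25 without the 26 members over a confident control cluster, and 3.67 to 5.30 when a library was left out, which were chosen after seeing the data, as were the motif shares in members with 1 label or no control edit. UGCAUG was in 10.04% of clusters, and within 50 nt and 100 nt of 19.2% and 26.1%. At 3 edited reads per member, depth limits what a single cluster shows.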
